A study of Mus musculus with 12 samples.

Results

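The 10 genes described here code for acute phase proteins and for parts of the interleukin 6 (IL-6) and STAT3 signalling route. They are Saa1, Saa2, Saa3, Hp, Lbp and Orm1 (acute phase proteins), Il6ra and Osmr (receptors), Stat3 (a transcription factor) and Socs3 (a feedback inhibitor). They were taken by gene symbol, and all 10 were found among the 40213 genes in the files. A filter on low counts kept 9 of them among the 17841 genes tested, leaving out Saa2. Saa1 and Saa3 passed that filter through the adenine-fed groups alone, since each had at most 1 count in any control library.

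Bulk RNA from the kidney tissue of C57BL/6 mice was sequenced, with 4 libraries in each of 3 groups. The colchicine group was fed adenine and given colchicine at 0.3 mg/kg per day intraperitoneally. The chronic kidney disease (CKD) group was fed adenine and given saline intraperitoneally, and the control group had a normal diet and saline. Dietary adenine forms crystals in the tubules and injures them, and colchicine, a plant alkaloid that blocks microtubule assembly, is used against inflammation in gout. All CKD libraries are labelled with 2% adenine, whereas colchicine replicates 1 to 4 are labelled with 2, 3, 4 and 5%, so that colchicine cannot be told apart from the labelled percentage in replicates 2 to 4. Whether these percentages are true diets or an error in the labels could not be settled here, and values that use them carry that doubt. Age and sex were not used here. Each library is called a biological replicate without an animal being named, and the p-values therefore reflect spread among libraries that may be technical.

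IL-6 family cytokines bind a receptor subunit of their own and then a shared subunit, gp130, which is encoded by Il6st. JAK kinases bound to the receptor phosphorylate STAT3, which enters the nucleus and switches on target genes. One of these is Socs3, whose product binds gp130 and JAK kinases and damps the signal. The acute phase response is best known in the liver, where IL-6 acting through STAT3, together with C/EBP and NF-kB factors, raises secreted proteins such as serum amyloid A and haptoglobin. In mice Saa3 is known to be made largely outside the liver.

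Library totals ranged from 23.9 to 38.3 M counts (M, 1000000) with colchicine, from 22.2 to 27.4 M in CKD and from 22.6 to 31.7 M in control. Mitochondrial transcripts took 14.6 to 21.8% of counts with colchicine, 16.7 to 17.3% in CKD and 41.5 to 46.7% in control. Values are given as TMM-scaled counts per 1000000 (CPM). Summed kidney markers (9 genes, among them Umod and Slc34a1) were at 1527 to 1835 CPM with colchicine, 2135 to 2481 CPM in CKD and 8321 to 9090 CPM in control. Slc34a1 and Lrp2 made up most of the control sum. They averaged 4707 and 1227 CPM in control and 293 and 115 CPM in CKD. Umod averaged 1385 CPM in control and 1169 CPM in CKD. A gene was called at a Benjamini-Hochberg adjusted p below 0.05 in edgeR's quasi-likelihood F test, and log2 fold changes carry their standard error (SE).

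Between CKD and control, 67.4% of all tested genes were called, and 34.1% were called higher in CKD. Of the 9 members tested, 8 were called higher in CKD, none was called lower, and Orm1 was not called. Their median log2 fold change was 3.40, against 0.04 over all genes tested. In all 8 the CKD and control libraries did not overlap, which held in the higher direction for 33.2% of all genes tested. In bulk tissue, a change in the number of cells of a type and a change in RNA per cell cannot be told apart. Markers of other cell types moved along with these genes. Summed macrophage markers (10 genes, 10 called higher) were at 1871 to 1927 CPM in CKD and 106 to 128 CPM in control, and summed neutrophil markers (10 genes, 7 tested, 7 called higher) at 93.6 to 126 CPM in CKD and 2.40 to 4.93 CPM in control. S100a8, Mmp9, Cxcr2, Mmp8 and Retnlg held 37, 26, 15, 9 and 8 counts over the control libraries. They passed the low-count filter through the adenine-fed groups alone, and the count of 7 higher carries that limit. Ly6g, Camp and Ngp, which were not tested, averaged 0.0489, 0.0073 and 0.0651 CPM in CKD and 0.0400, 0 and 0.0736 CPM in control. Summed injured tubule markers (6 genes, 6 called higher) were at 1301 to 1432 CPM in CKD and 18.9 to 21.9 CPM in control, and summed fibroblast markers (6 genes, 6 called higher) at 3121 to 3700 CPM in CKD and 354 to 426 CPM in control. The largest part of the injured tubule sum was Lcn2, at a mean of 738 CPM in CKD. Lcn2 is also on the wider acute phase list below, so the sum and that list are not separate results. Krt20 held 52 counts over the control libraries and passed the low-count filter through the adenine-fed groups alone. The part of these cell types in the results was not tested. Of 12 hepatocyte markers listed and 6 tested, none was called higher and 4 were called lower in CKD, against 1 higher and 2 lower when libraries are scaled by their totals alone. Their sum was 8.20 to 10.9 CPM in CKD and 20.2 to 29.1 CPM in control. Of the 9 kidney markers, 1 (Pax8) was called higher and 6 lower in CKD, against 3 higher and 3 lower on library totals. Umod, at a log2 fold change of -0.24, and Nphs1, at -0.26, were not called.

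Between colchicine and CKD, 15.0% of all genes were called, 6.79% higher and 8.24% lower with colchicine. Of the 9 members, Saa3 was called higher, Saa1 was called lower and 7 were not called. Their median log2 fold change was 0.03, against 0.03 over all genes tested. Without the 3 libraries low in fat marker transcripts (CKD replicates 2 and 3 and colchicine replicate 4), an alternative added after seeing the data, the log2 fold changes were 1.52 for Saa3 and -1.38 for Saa1. Neither was then called, in a smaller fit that called 401 genes in place of 2682. Markers of other cell types also differed between colchicine and CKD. Summed fibroblast markers were at 3842 to 5051 CPM with colchicine and 3121 to 3700 CPM in CKD, with no overlap and 2 of 6 called higher, and the kidney markers given above did not overlap either, with 3 of 9 called lower. On another scaling (RLE size factors) 1 of the 6 fibroblast markers was called higher. Collagen genes made up most of the fibroblast sum. Col1a1, Col1a2 and Col3a1 averaged 1770, 1120 and 1090 CPM with colchicine and 1235, 898 and 922 CPM in CKD. Pdgfra, Dcn and Lum averaged 160.8, 181 and 12.8 CPM with colchicine and 161.4, 226 and 16.1 CPM in CKD. Over the 8 adenine-fed libraries, which fall into these groups, r with the fibroblast markers was -0.932 for Saa1 and 0.877 for Saa3, and with the kidney markers 0.835 for Saa1 and -0.883 for Saa3. Around the group means of all 12 libraries, r with the fibroblast markers was -0.522 for Saa1 and 0.329 for Saa3. With the kidney markers, r around the group means was -0.050 for Saa1 and -0.091 for Saa3. The part of these cell types in the Saa1 and Saa3 differences was not tested. Between colchicine and control, 70.5% of all genes were called and 37.1% were called higher, and 8 of the 9 members were higher, with Orm1 again not called. The comparisons with CKD and with control share libraries, so each is given with its own values.

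**Figure D1:**
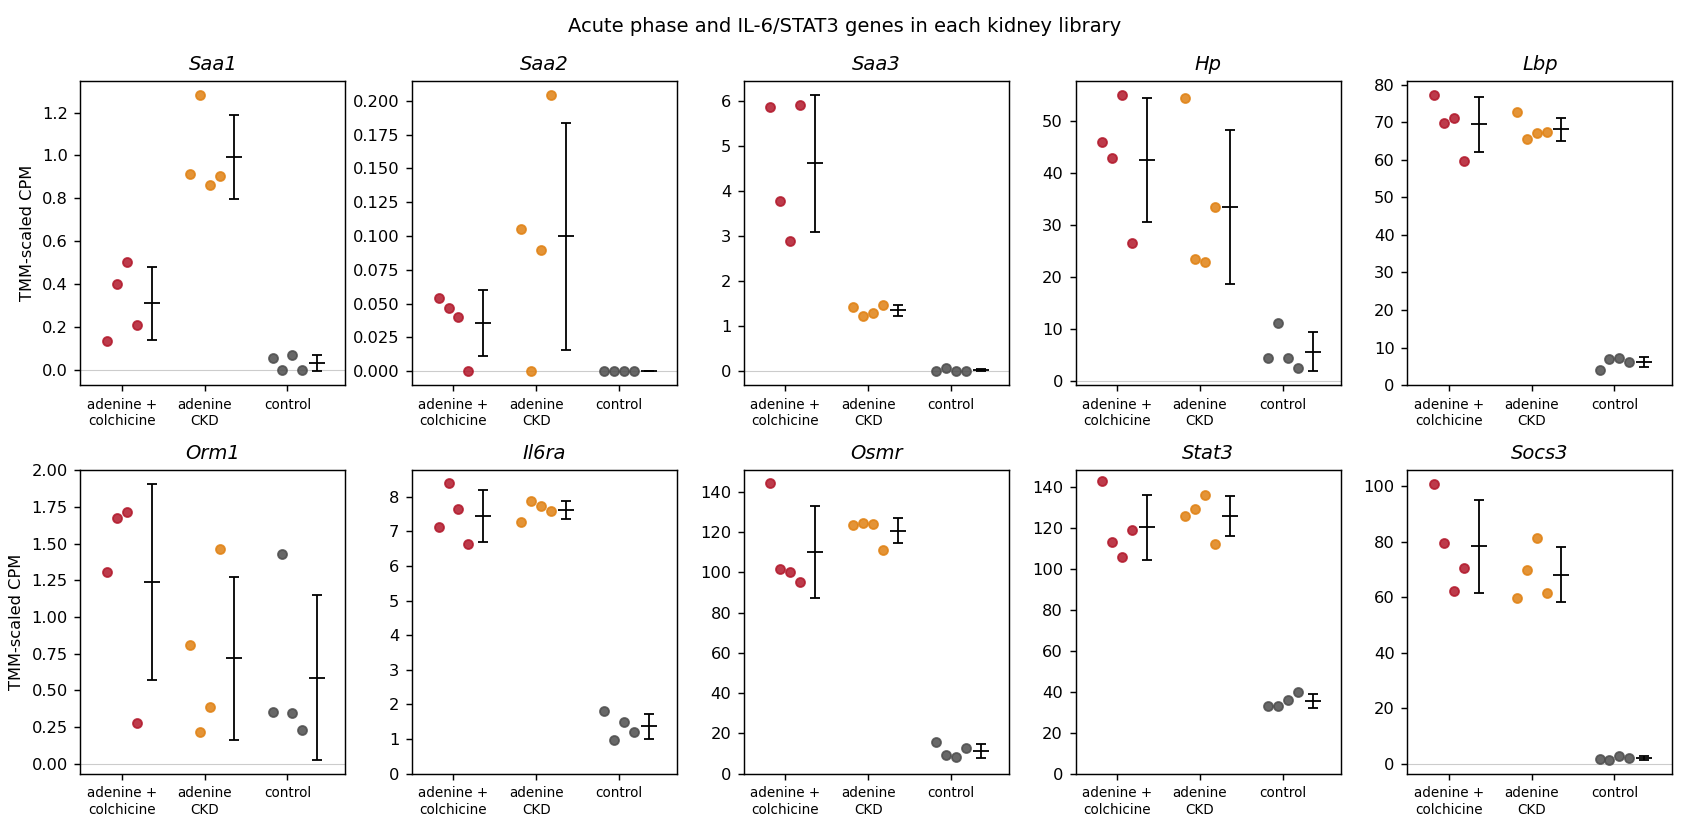
Each panel plots 1 of the 10 genes as TMM-scaled CPM on a linear axis that takes in 0, with 1 point per library, for adenine with colchicine, adenine CKD and control (4 libraries each, replicates 1 to 4 from left to right). Black marks beside the points give the mean and 1 SD either way. Saa3 was highest with colchicine and Saa1 in CKD, while Orm1 overlapped between all groups.

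Serum amyloid A proteins are carried on high-density lipoprotein and are among the most inducible acute phase products. The promoters of the Saa genes and of Socs3 are shown because Saa3, Socs3 and Saa1 had the largest log2 fold changes of CKD over control among the members tested, and because Saa1 and Saa3 moved in opposite directions with colchicine. Each is the 250 bases before the RefSeq start of the gene, written along the gene's own strand. Coordinates are those of the RefSeq table's build, GRCm38.p6, and not of GRCm39, the build of the deposited counts. Saa1 is at chr7:46742981-46743230 on the minus strand, Saa2 at chr7:46751583-46751832 on the plus strand, Saa3 at chr7:46715677-46715926 on the minus strand and Socs3 at chr11:117969367-117969616 on the minus strand. Capitals mark matches, on either strand, to the letters TTGCNNAA for C/EBP or TTCNNNGAA for STAT.
Saa1: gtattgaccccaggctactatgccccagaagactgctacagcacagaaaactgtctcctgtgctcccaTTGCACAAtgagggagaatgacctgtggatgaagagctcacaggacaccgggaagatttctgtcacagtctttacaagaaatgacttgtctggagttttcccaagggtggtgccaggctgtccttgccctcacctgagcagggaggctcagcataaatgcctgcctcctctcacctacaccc
Saa2: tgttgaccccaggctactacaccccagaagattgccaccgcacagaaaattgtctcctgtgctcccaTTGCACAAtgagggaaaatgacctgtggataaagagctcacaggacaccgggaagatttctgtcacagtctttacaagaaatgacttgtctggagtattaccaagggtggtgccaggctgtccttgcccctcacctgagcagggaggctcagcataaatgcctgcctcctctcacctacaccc
Saa3: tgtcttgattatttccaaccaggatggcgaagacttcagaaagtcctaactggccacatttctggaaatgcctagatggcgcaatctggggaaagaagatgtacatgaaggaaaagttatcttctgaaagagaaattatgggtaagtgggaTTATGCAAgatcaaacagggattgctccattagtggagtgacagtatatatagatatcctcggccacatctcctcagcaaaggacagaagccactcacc
Socs3: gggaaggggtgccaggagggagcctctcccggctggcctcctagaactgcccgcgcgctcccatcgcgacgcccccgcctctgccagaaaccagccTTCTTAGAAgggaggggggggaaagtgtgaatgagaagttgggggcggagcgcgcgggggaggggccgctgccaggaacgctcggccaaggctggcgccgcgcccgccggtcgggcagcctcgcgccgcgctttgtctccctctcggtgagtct
The table held promoters for 7 of the 10 members, the other 3 of these being Il6ra, Osmr and Stat3. Saa1 and Saa2 hold TTGCACAA at -182 to -175 and at -183 to -176 from the start. Saa3 holds TTATGCAA at -99 to -92, a match read on the opposite strand. Socs3 holds TTCTTAGAA at -154 to -146, the only STAT match among the 7. A match to C/EBP occurs in 9.56% of 32851 promoters of this length and one to STAT in 7.02%. The NF-kB motif was found in 3.9% of them and in none of the 7. The 2 motifs that matched do not overlap in these windows, and a match is a description and not a shown binding site. Aligned end to end, the Saa1 and Saa2 promoters were 94.8% identical, those of Saa1 and Saa3 48.9% and those of Saa2 and Saa3 47.9%.

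Saa1 read 0.136, 0.400, 0.504 and 0.209 CPM in the colchicine libraries, 0.914, 1.28, 0.863 and 0.905 CPM in the CKD libraries and 0.0583, 0, 0.0685 and 0 CPM in the control libraries. These values rest on few counts, 53 in all with colchicine, 122 in CKD and 2 in control. Every colchicine library lay below every CKD library, as in 9.29% of all genes tested, and both groups lay above control. Against control, the ratio of summed counts in CKD was 33.7 (95% exact binomial interval 9.13 to 281, which covers counting error only), and the adjusted p was 1.24e-05. With colchicine the ratio to control was 11.5 (3.04 to 97.7), with an adjusted p of 0.0013. Colchicine against CKD gave a log2 fold change of -1.61 ± 0.41 (adjusted p 0.0196), and an exact two-sided permutation test gave p = 0.0286, the smallest that 4 libraries against 4 allow. That call is narrow: the adjusted p was 0.0601 without CKD replicate 2, 0.0512 without CKD replicate 3 and 0.0505 without colchicine replicate 4. Taking only colchicine replicate 1, the library labelled with the same 2% adenine as CKD, gave -2.83 with an adjusted p of 0.0272. A single library is there assumed to vary like the other groups.

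Saa2 had few counts, with 2, 2, 2 and 0 counts in the colchicine libraries, 3, 0, 3 and 7 in the CKD libraries and 0 in all 4 control libraries. A count of 0 allows up to 0.153 to 0.205 CPM in a control library (3 counts). Taken against a floor of 3 counts over the control group, the ratio of CKD to control was 2.39. That value leaves out the counting error in CKD, and the exact interval of the count ratio began at 1.68. The CKD and control libraries overlapped, with 0 counts in CKD replicate 2, and the exact permutation test gave p = 0.143. No fold is given for colchicine against control, where both lie at or near the floor. The count ratio of colchicine to CKD was 0.364, with an interval of 0.113 to 1.03. Saa1 and Saa2 transcripts share sequence, since 26.8% of the 31-letter words of Saa1 transcripts also occur in Saa2 and 22.9% of those of Saa2 occur in Saa1. The RefSeq table lists each of these symbols as a synonym of the other, so the split between them is uncertain. Their sum gave log2 fold changes of 5.03 ± 0.65 for CKD against control (adjusted p 5.2e-06), -1.60 ± 0.38 for colchicine against CKD (0.0152) and 3.43 ± 0.72 for colchicine against control (0.000564).

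Saa3 read 5.87, 3.77, 2.88 and 5.91 CPM in the colchicine libraries, 1.41, 1.21, 1.28 and 1.46 CPM in the CKD libraries and 0, 0.0509, 0 and 0 CPM in the control libraries. The lowest colchicine library stood above the highest CKD library, as in 8.92% of all genes tested, and control held 1 count in all. The ratio of summed counts to control was 299.96 with colchicine (53.7 to 11865) and 92.2 in CKD (16.3 to 3663), with an adjusted p of 2.68e-09 for colchicine and 2.59e-07 for CKD. Colchicine against CKD gave a log2 fold change of 1.77 ± 0.26 (adjusted p 0.00135, exact permutation p = 0.0286). Leaving out any 1 library gave 1.62 to 1.94, with adjusted p-values up to 0.00858, and colchicine replicate 1 alone gave 2.12 (adjusted p 0.000425). Without the 3 libraries low in fat markers it was 1.52 (adjusted p 0.0733). Of the 31-letter words of Saa3 transcripts, 1.17% are shared with Saa1, Saa2 or Saa4.

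Within a library, the number of Saa3 counts per Saa1 count was 43.2, 9.41, 5.72 and 28.3 with colchicine and 1.54, 0.944, 1.48 and 1.61 in CKD. The genes differ in length, so the ratio compares libraries and not the level of one gene with the other. It was higher in every colchicine library than in every CKD library. That follows from the values of each gene given above and is not a separate result. The ratios of 43.2 and 28.3 rest on 5 and 6 Saa1 counts. Saa1 and Saa3 differed in direction between colchicine and CKD, although both were higher than control in both groups.

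**Figure D2:**
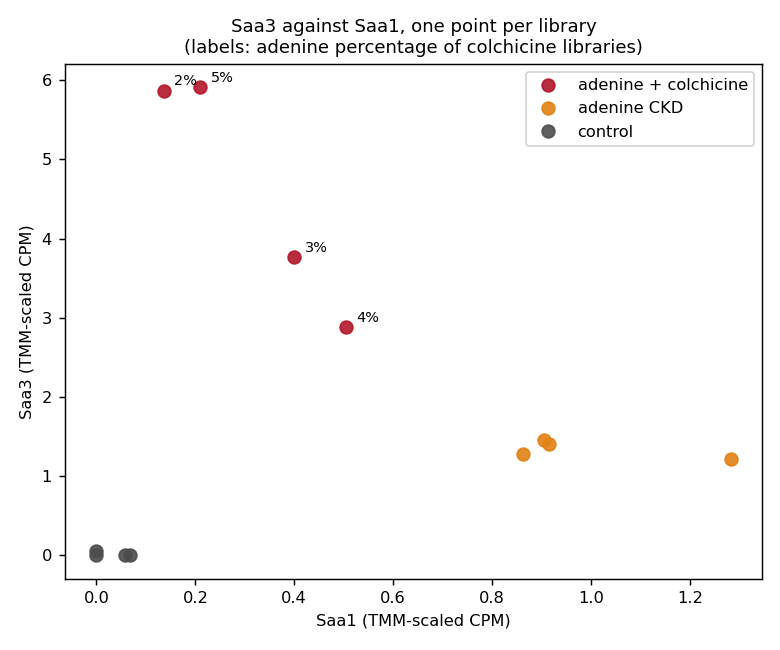
The plot sets Saa3 against Saa1 in CPM, 1 point per library, with colors for colchicine, CKD and control and the labelled adenine percentage beside each colchicine point. Colchicine libraries lie at 2.88 to 5.91 CPM of Saa3 and 0.136 to 0.504 CPM of Saa1, and CKD libraries at 1.21 to 1.46 and 0.863 to 1.28 CPM.

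Lbp codes for lipopolysaccharide-binding protein, which hands bacterial lipopolysaccharide to CD14. It read 77.4, 69.9, 71.2 and 59.7 CPM in the colchicine libraries, 72.7, 65.6, 67.2 and 67.3 CPM in the CKD libraries and 4.14, 6.98, 7.33 and 6.20 CPM in the control libraries. Both adenine-fed groups overlapped each other and stood far above control. Lbp was 11.1-fold higher in CKD than in control (log2 fold change 3.47 ± 0.14, adjusted p 1.33e-11). Colchicine against CKD gave 0.03 ± 0.11 (adjusted p 0.883) and colchicine against control 3.50 ± 0.14 (adjusted p 9.59e-12).

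Hp codes for haptoglobin, which binds free haemoglobin and in mice is also made by white fat. It read 45.9, 42.9, 55.0 and 26.5 CPM in the colchicine libraries, 54.5, 23.4, 22.9 and 33.4 CPM in the CKD libraries and 4.55, 11.2, 4.52 and 2.55 CPM in the control libraries. The adenine-fed groups overlapped each other, and the spread within each group was wide. Hp was 5.78-fold higher in CKD than in control (log2 fold change 2.53 ± 0.46, adjusted p 0.00051) and 2.88 ± 0.46 higher on the log2 scale with colchicine than in control (adjusted p 0.000185). The difference between colchicine and CKD was 0.35 ± 0.39 on that scale (adjusted p 0.561).

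Orm1 codes for alpha-1-acid glycoprotein, a plasma carrier of drugs and lipids. It read 1.30, 1.67, 1.71 and 0.278 CPM in the colchicine libraries, 0.809, 0.214, 0.387 and 1.46 CPM in the CKD libraries and 0.350, 1.43, 0.342 and 0.232 CPM in the control libraries. All 3 groups overlapped, and none of the 3 comparisons was called. The log2 fold changes were 0.26 ± 0.70 for CKD against control (adjusted p 0.769), 0.80 ± 0.63 for colchicine against CKD (0.391) and 1.05 ± 0.68 for colchicine against control (0.179). Without control replicate 2, the last of these was 2.02 with an adjusted p of 0.0262. Orm1 shares 27.5% of its 31-letter words with Orm2, whose 4 CKD libraries read 0.246, 0.356, 0.238 and 0.263 CPM against 0 in each control library. Orm2 read 0.0543, 0.0235, 0.141 and 0.0696 CPM with colchicine, all below CKD, on 12 counts in all with colchicine and 34 in CKD, and it was not among the genes tested. With Orm1, Orm2 and Orm3 summed, the adjusted p-values were 0.389, 0.706 and 0.173 in the same order.

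Fat marker transcripts varied between libraries and moved with Orm1 and Hp. The sum of Adipoq, Plin1 and Cidec, which mark fat cells, was 20.6, 18.4, 29.7 and 1.88 CPM with colchicine, 20.2, 0.178, 0.744 and 34.4 CPM in CKD and 9.56, 41.8, 18.6 and 15.2 CPM in control. Plin1 was at 0 in CKD replicates 2 and 3. The whole list of 7 fat markers summed to 90.2 to 262 CPM with colchicine, 65.4 to 241 CPM in CKD and 188 to 364 CPM in control, and of its 6 tested genes 1 was called lower in CKD than in control. Across the 8 adenine-fed libraries, which share a tissue and the scaling, Pearson's r between the 3-gene sum and the member on a log scale was 0.928 for Orm1, 0.856 for Hp and 0.582 for Lbp. The library with the most Orm1 in control, replicate 2, also had the most fat marker counts there. With the sum as a covariate, an alternative added after seeing the data, Hp in CKD against control gave 2.97 (adjusted p 1.8e-05). Orm1 then gave 1.06 in CKD against control (adjusted p 0.0675) and 1.24 with colchicine against control (adjusted p 0.0169), a comparison that was not called without the covariate.

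**Figure D3:**
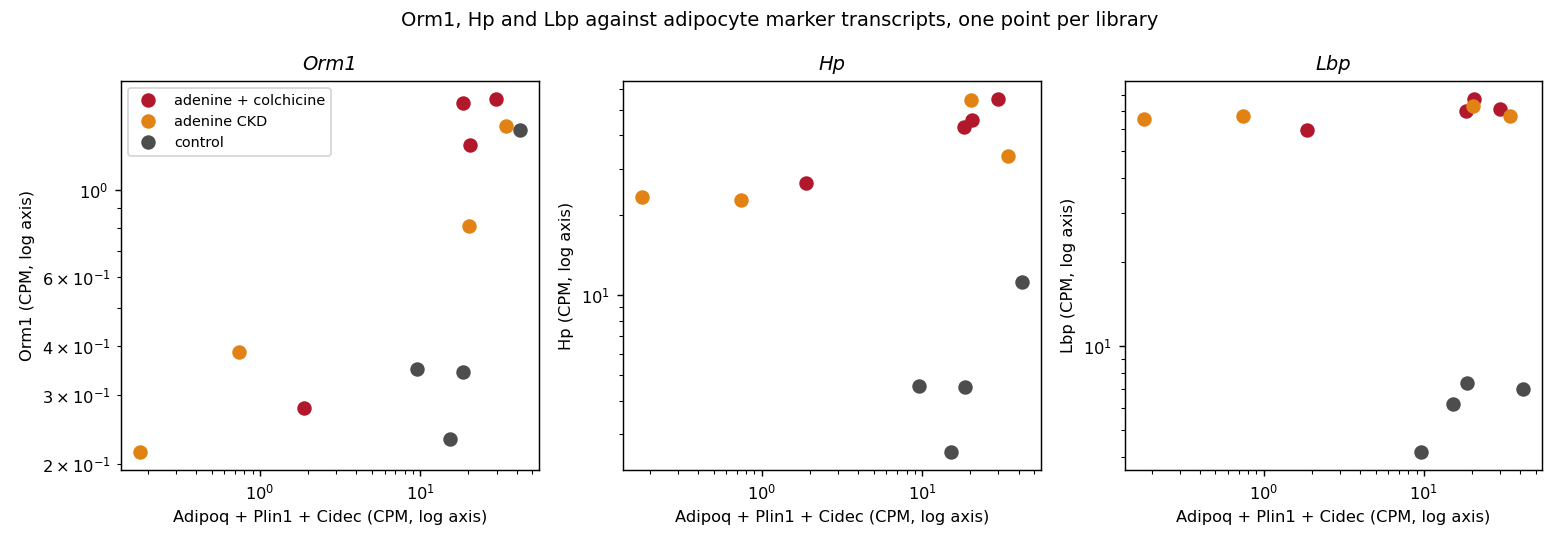
The panels set Orm1, Hp and Lbp in CPM against the summed CPM of Adipoq, Plin1 and Cidec, on log axes, 1 point per library for colchicine, CKD and control. Orm1 and Hp follow the fat marker sum among the 8 adenine-fed libraries, with r of 0.928 and 0.856.

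Of 8 IL-6 family ligand genes tested out of 10 listed, 7 were higher in CKD than in control and none was lower. The shares over all genes were 34.1% higher and 33.4% lower. Il6 read 4.21, 1.74, 1.53 and 3.48 CPM in the colchicine libraries, 1.58, 2.60, 3.39 and 2.07 CPM in the CKD libraries and 0, 0.0509, 0 and 0.0580 CPM in the control libraries. The adenine-fed groups overlapped, and control held 2 counts in all. Its ratio of counts in CKD to control was 83.6 (23.0 to 694), with an adjusted p of 8.22e-07, and colchicine against CKD gave a log2 fold change of 0.17 ± 0.34 (adjusted p 0.746). Lif, a cytokine that signals through gp130 and Lifr, averaged 10.4 ± 2.41 CPM in CKD and 0.369 ± 0.204 CPM in control (SD, n = 4), a log2 fold change of 4.77 ± 0.43 (adjusted p 2.25e-07). Osm, the ligand of Osmr in mice, averaged 1.69 ± 0.494 CPM in CKD and 0.0734 ± 0.0293 CPM in control (4.46 ± 0.44, adjusted p 2.57e-07). Il6, Il11, Lif and Osm held 2, 21, 26 and 5 counts over the control libraries. They passed the low-count filter through the adenine-fed groups alone, and the count of 7 higher and none lower carries that limit.

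Il11 (3.08 ± 0.44), Cntf (0.67 ± 0.25) and Clcf1 (3.27 ± 0.13), given as log2 fold changes, were also higher in CKD than in control. Ctf1, at -0.17 ± 0.15, was not called. Clcf1 was also called between colchicine and CKD. It read 33.4, 29.7, 33.3 and 27.1 CPM in the colchicine libraries and 21.7, 25.2, 18.7 and 23.7 CPM in the CKD libraries, with no overlap, and its log2 fold change was 0.47 ± 0.11 (adjusted p 0.0113). Il11 gave 0.84 ± 0.32 with an adjusted p of 0.0822.

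Il6ra codes for the IL-6 binding subunit. It read 7.12, 8.41, 7.63 and 6.64 CPM in the colchicine libraries, 7.28, 7.87, 7.74 and 7.59 CPM in the CKD libraries and 1.81, 0.968, 1.51 and 1.22 CPM in the control libraries. Both adenine-fed groups stood above control and overlapped each other. The log2 fold changes were 2.48 ± 0.17 for CKD against control (adjusted p 3.42e-09), 2.45 ± 0.17 for colchicine against control (adjusted p 3.18e-09) and -0.03 ± 0.14 for colchicine against CKD (adjusted p 0.892).

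Osmr codes for the subunit that joins gp130 to bind oncostatin M. It read 144, 101, 100.3 and 95 CPM in the colchicine libraries, 123, 124, 124 and 111 CPM in the CKD libraries and 15.8, 9.12, 8.08 and 12.8 CPM in the control libraries. Colchicine replicate 1 was above all CKD libraries and the other 3 colchicine libraries were below them. Osmr was 10.5-fold higher in CKD than in control (log2 fold change 3.40 ± 0.19, adjusted p 1.2e-09), and 3.27 ± 0.19 higher on the log2 scale with colchicine than in control (adjusted p 1.44e-09). For colchicine against CKD the value was -0.13 ± 0.17 (adjusted p 0.598).

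All 7 receptor genes listed were tested, and 5 were higher and 2 lower in CKD than in control. The shares over all genes were 34.1% higher and 33.4% lower. Il6st, the gp130 gene, averaged 138 ± 5.62 CPM in CKD and 64.4 ± 1.33 CPM in control (SD, n = 4), a log2 fold change of 1.10 ± 0.06 (adjusted p 6.03e-10). Cntfr (2.27 ± 0.21) and Il27ra (2.54 ± 0.23) were higher as well. Il27ra held 55 counts over the control libraries and passed the low-count filter through the adenine-fed groups alone, which limits the count of 5. Il11ra1, which binds interleukin 11, was at -1.09 ± 0.13 (adjusted p 3.56e-06) and Lifr at -0.27 ± 0.11 (adjusted p 0.0379). Scaled by library totals alone, where mitochondrial transcripts count, the median log2 fold change of all genes in CKD against control was 1.05, and 13197 genes were called higher and 1850 lower instead of 6076 and 5952. On that scale the receptors gave 6 higher and 0 lower, Il11ra1 was not called at -0.08, and Lifr turned to 0.74. Between colchicine and CKD, Lifr alone of the 7 was called, at -0.38 ± 0.11 (adjusted p 0.0306), and it was not called on library totals. In that comparison 15.0% of all genes were called.

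**Figure D4:**
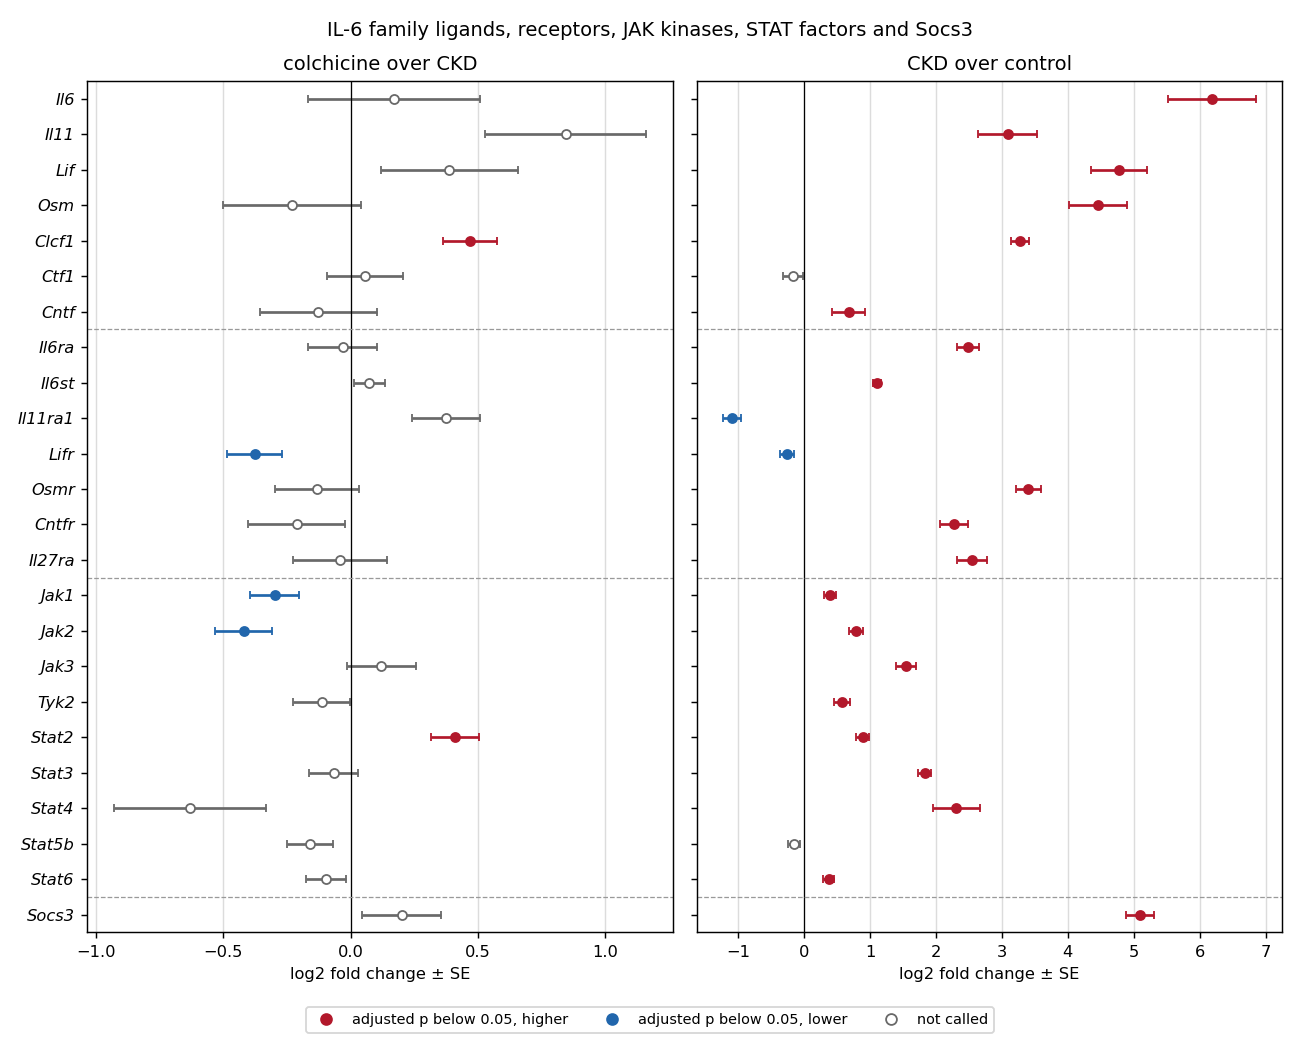
Points give log2 fold changes with SE bars for ligands, receptors, JAK kinases and STAT factors named in the text, and Socs3, colchicine over CKD on the left and CKD over control on the right, each panel with its own axis range. Filled points passed an adjusted p of 0.05. Most genes lie to the right of 0 for CKD over control, and 5 are filled for colchicine over CKD.

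Stat3 read 143, 113, 106 and 119 CPM in the colchicine libraries, 126, 129, 136 and 113 CPM in the CKD libraries and 33.2, 33.2, 35.9 and 40.2 CPM in the control libraries. The adenine-fed groups overlapped each other and every one of their libraries was above control. Stat3 was 3.54-fold higher in CKD than in control (log2 fold change 1.82 ± 0.10, adjusted p 4.21e-10), and 1.76 ± 0.10 higher on the log2 scale with colchicine than in control (adjusted p 4.86e-10). Colchicine against CKD gave -0.07 ± 0.10 (adjusted p 0.650). These are transcript levels, and phosphorylation of STAT3 was not measured.

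Of 11 JAK kinase and STAT genes, 9 were higher and none lower in CKD than in control. Over all genes, 34.1% were called higher and 33.4% lower. Apart from Stat3, the 9 included Stat4 (log2 fold change 2.30 ± 0.36), Jak3 (1.54 ± 0.15), Stat2 (0.88 ± 0.10), Jak2 (0.78 ± 0.11), Tyk2 (0.58 ± 0.12), Jak1 (0.39 ± 0.10) and Stat6 (0.37 ± 0.08). Stat4 held 35 counts over the control libraries and passed the low-count filter through the adenine-fed groups alone, which limits the count of 9. Stat5b, at -0.16 ± 0.09, was not called. Between colchicine and CKD, Stat2, a factor of interferon signalling, rose by 0.41 ± 0.09 (adjusted p 0.0125). Jak2 was at -0.42 ± 0.11 (adjusted p 0.0226) and Jak1 at -0.30 ± 0.10 (adjusted p 0.0485), and Jak1 was not called on upper-quartile scaling or on library totals. In both kinases colchicine replicate 1, with 73.2 CPM of Jak2, stood well above the other 3 colchicine libraries, which had 49.9 to 52.1 CPM of Jak2 against 72.4 to 77.5 CPM in CKD.

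Socs3 had the largest fold change against control among the members outside the Saa family. It read 101, 79.6, 62.3 and 70.5 CPM in the colchicine libraries, 59.9, 69.95, 81.3 and 61.5 CPM in the CKD libraries and 1.69, 1.43, 2.94 and 2.09 CPM in the control libraries. The adenine-fed groups overlapped each other, and none of their libraries came near control. Socs3 was 34.1-fold higher in CKD than in control (log2 fold change 5.09 ± 0.21, adjusted p 5.49e-11) and 39.1-fold higher with colchicine than in control (5.29 ± 0.21, adjusted p 2.97e-11). For colchicine against CKD the log2 fold change was 0.20 ± 0.15 (adjusted p 0.380). Around the group means, deviations over the 12 libraries were most alike for Hp and Orm1 (r = 0.823), Saa1 and Il6ra (0.690) and Stat3 and Socs3 (0.675), and most opposed for Saa1 and Saa3 (-0.796) and Saa3 and Il6ra (-0.668). These are the ends of 36 pairs, and all values share depth and scaling.

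Of 15 feedback inhibitors, 8 were higher and 1 was lower in CKD than in control, a share no larger than the 67.4% called over all genes, and on library totals 15 were higher. Ptprc, the CD45 phosphatase of leukocytes, rose by 2.98 ± 0.16 on the log2 scale, Ptpn1 by 1.22 ± 0.08 and Ptpn6 by 0.81 ± 0.07. Of the 15, 2 were higher and 2 lower with colchicine than in CKD, where 15.0% of all genes were called. Socs1, an inhibitor of JAK kinases, read 2.25, 3.11, 2.24 and 2.40 CPM with colchicine and 1.27, 1.28, 1.58 and 1.46 CPM in CKD, a log2 fold change of 0.84 ± 0.20 (adjusted p 0.0166). Ptprc was at -0.88 ± 0.14 (adjusted p 0.00237) and Ptpn6 at -0.33 ± 0.07 (adjusted p 0.0106). Summed macrophage markers were at 1264 to 1870 CPM with colchicine and 1871 to 1927 CPM in CKD, with 5 of 10 called lower, and their part in these values was not tested. All 4 genes of receptor shedding, by which the protease ADAM17 frees soluble IL-6 receptor, were higher in CKD than in control. Over all genes, 34.1% were called higher. Rhbdf2 gave 1.63 ± 0.09, Adam17 1.11 ± 0.10, Adam10 0.75 ± 0.09 and Rhbdf1 0.66 ± 0.08 on the log2 scale, and none was called between colchicine and CKD.

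Of 24 genes known as STAT3 targets in other settings, 15 were higher and 4 lower in CKD than in control, with a median log2 fold change of 1.25 against 0.04 over all genes. Many of them also answer to other factors. Over all genes, 34.1% were called higher and 33.4% lower, and on library totals 18 of the 24 were higher and 2 lower. Timp1, a metalloproteinase inhibitor, averaged 106 ± 9.45 CPM in CKD and 0.544 ± 0.252 CPM in control (SD, n = 4), a log2 fold change of 7.61 ± 0.20 (adjusted p 4.93e-13). Timp1 and Batf3 held 37 and 30 counts over the control libraries. They passed the low-count filter through the adenine-fed groups alone, which limits the count of 15 higher. Icam1, an adhesion molecule, gave 2.33 ± 0.08 and Bcl3, an NF-kB cofactor, 2.35 ± 0.11. Other targets went down, and those given here were named after their values were seen. Ccnd1 and Gadd45g were called lower, at -0.90 each, but not on library totals. Pim3 averaged 34.0 CPM in CKD and 101 CPM in control, and Vegfa 89.2 and 216 CPM. With colchicine, 3 of the 24 were higher and 1 lower than in CKD, a share near the 15.0% of all genes. Pim1, a kinase, read 51.0, 49.4, 43.9 and 38.0 CPM with colchicine and 24.9, 31.2, 33.8 and 28.8 CPM in CKD (log2 fold change 0.62 ± 0.11, adjusted p 0.00453). Birc5, the survivin gene of dividing cells, gave 0.75 ± 0.15 (adjusted p 0.00709) and Tnfaip3, an inhibitor of NF-kB signalling, -0.60 ± 0.15 (adjusted p 0.0202).

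The wider list of 33 acute phase genes held 25 that were tested, of which 22 were higher and 2 lower in CKD than in control. Its median log2 fold change was 3.94. Of all genes tested, 34.1% were called higher and 33.4% lower in CKD. Cp, the copper carrier ceruloplasmin, averaged 818 ± 16.3 CPM in CKD and 52.1 ± 5.97 CPM in control, and Il1rn, the interleukin 1 receptor antagonist, 62.5 ± 8.09 CPM in CKD and 0.299 ± 0.127 CPM in control (SD, n = 4). Reg3g, Crp, Chil3, Itih4, Ptx3, Il1rn and A2m held 3, 7, 8, 11, 18, 20 and 30 counts over the control libraries. They passed the low-count filter through the adenine-fed groups alone. The count of 22 higher and 2 lower and the median of 3.94 carry that limit. With colchicine none of the 25 was higher than in CKD and 8 were lower, with a median of -0.27 against 0.03 over all genes. Of all genes tested, 6.79% were called higher and 8.24% lower with colchicine. C3, the central complement protein, averaged 825 ± 172 CPM with colchicine and 1380.3 ± 62.8 CPM in CKD (log2 fold change -0.74 ± 0.15, adjusted p 0.00643). Il1rn was at -0.54 ± 0.11 (adjusted p 0.00676) and Cd14, the partner of Lbp, at -0.37 ± 0.09 (adjusted p 0.0193). Cd14 is also among the macrophage markers, of which 5 of 10 were called lower with colchicine, and their part was not tested. Fga, a fibrinogen chain, read 83.5, 50.2, 69.2 and 147 CPM with colchicine and 219, 203, 309 and 243 CPM in CKD (-1.48 ± 0.28, adjusted p 0.00866). The other fibrinogen chains, Fgb and Fgg, named after their values were seen, were called at -1.35 and -1.40.

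Of 10 negative acute phase genes, whose liver output falls in inflammation, 9 were tested, with 3 higher and 4 lower in CKD than in control, where 67.4% of all genes were called. On library totals the split was 5 higher and 3 lower. This list shares genes with the hepatocyte markers, among them Alb, Apoa2 and Ahsg, so their counts are not separate results. Alb read 0.703, 1.57, 1.67 and 1.14 CPM in CKD and 11.0, 7.33, 4.86 and 8.70 CPM in control (log2 fold change -2.64 ± 0.28, adjusted p 6.19e-07), and Apoa2 gave -2.10 ± 0.24. Trf, the transferrin gene, went the other way at 2.62 ± 0.10 (adjusted p 1.11e-11). With colchicine, 1 was higher and 3 were lower than in CKD, where 15.0% of all genes were called. Ttr, the transthyretin gene, averaged 59.8 ± 13.8 CPM with colchicine and 153 ± 11.3 CPM in CKD (-1.36 ± 0.19, adjusted p 0.00141). Trf was at -0.53 ± 0.09 (adjusted p 0.00409) and Igf1 at 0.40 ± 0.08 (adjusted p 0.00884).

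The genes whose log2 CPM followed each member most closely over the 12 libraries, by Pearson's r, are given as a description, since the shared difference between control and adenine-fed libraries sets most of such an r. Saa1 was nearest to Slco2b1 (0.965) and Septin6 (0.959), and Saa3 to Oas1a and Crip1 (0.994 each). Lbp was nearest to Ms4a4a and Apoc2 (0.999 each), and Hp to Znf41-ps (0.971) and Vwf (0.969). Il6ra was nearest to Calhm2 (0.995) and Mmp7 (0.994), and Osmr to Slc34a2 (0.998) and Pros1 (0.996). Stat3 was nearest to Iqgap1 and Colgalt1 and Socs3 to Lgi2 and Ecscr, all at 0.998. For Orm1 the nearest were Mfrp (0.920) and Gsdmc2 (0.866). Of these 18 pairs, 14 were also found with a prior count of 0.5 in place of 2.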

How the data were processed

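The deposited values are gene-level expected counts (estimated counts) in whole numbers, 1 file per library. The tools named in the submitters' processing notes are fastp, STAR and Salmon, and the build is GRCm39. Their versions, settings and annotation are not given in the sources at hand. Per the labels' protocols, a CORALL kit was used on RNA from RNAiso Plus. The 28 largest values, at 1000000 or more, are all rounded to multiples of 10.

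Counts were analysed in R 4.3.3 with edgeR 4.0.16. Genes were filtered with filterByExpr (minimum count 10), libraries were scaled by TMM, and 3 group means were fitted to all 12 libraries with a robust quasi-likelihood model. Tests were two-sided, with Benjamini-Hochberg adjustment over all 17841 genes tested. Log2 CPM used a prior count of 2. Exact permutation tests used the 70 arrangements of 4 libraries against 4. Promoters were taken by symbol from a RefSeq table of GRCm38.p6 and aligned with Biopython 1.88, and the words shared between paralogs came from the reference transcripts. Alternatives included limma-voom (limma 3.58.1), DESeq2 1.42.0, other scalings and filters, the replicate block, a slope on the labelled adenine and the omission of each library in turn. Replicate libraries of a group differed by more than sampling noise in all 18 pairs. Chi-square per degree of freedom was 58.1 to 71.8 in the pairs with colchicine replicate 1 and 18.9 to 33.0 in the other colchicine pairs. It was 7.12 to 23.8 in the CKD and control pairs.

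The 10 members, the gene lists and the tests were chosen with earlier results of these data known. Named beyond the members are tested ligands, receptors, kinases and STAT factors of the IL-6 family, and of each further list examples of the 3 genes with the smallest p in each of the first 2 comparisons. Some other genes of these lists and of the cell type markers are named to give the make-up or limits of a count or sum. The tests were checked on simulated counts in which 200 genes had known changes. A few genes that this rule takes are not reported here.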

Additional observations from a re-analysis of the deposited data

Results flagged for a closer look

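Over the 10 genes and 3 groups, 30 sets of 4 libraries were examined, and in 5 of them 1 library stood apart from the other 3 by Dixon's ratio of gap to range at its 95% critical value. Chance gives about 1 in 20. Saa1 had 1.28 CPM in CKD replicate 2 and 0.914 CPM in the next library, a ratio of 0.878. Saa3 had 1 count in control replicate 2 and 0 in the other 3, a ratio of 1 that rests on that single count. Orm1 had 1.43 CPM in control replicate 2 and 0.350 CPM in the next library, a ratio of 0.901. Osmr had 111 CPM in CKD replicate 4 and 123 CPM in the next library, a ratio of 0.916. Osmr also had 144 CPM in colchicine replicate 1, the library labelled with 2% adenine, and 101 CPM in the next library, a ratio of 0.869.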

How the results depend on the processing

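For single members, 626 values under an alternative kept their direction and their side of the threshold, 7 fell below it, 4 passed it and 12 changed sign. In CKD against control, 8 members were called in each leave-one-out fit. Between colchicine and CKD, the 2 called members became 1 with DESeq2 (where Saa1 has no adjusted p), with a mean count of 50 or more, and at 2% adenine on a slope over the labelled percentage (Saa1 -1.94, adjusted p 0.101), and 1 to 2 with each library left out. Without the 3 libraries low in fat markers (CKD replicates 2 and 3 and colchicine replicate 4; chosen after seeing the data) they became 0, with Saa3 at 1.52 (adjusted p 0.0733) and Saa1 at -1.38 (0.299); fewer libraries were then fitted. Over all genes, the 2682 calls between colchicine and CKD became 284 with a 2-fold minimum, 1008 on the slope, 1181 with only colchicine replicate 1, 1588 with the fat marker covariate and 401 without those 3 libraries. Leaving out 1 library gave 992 (without CKD replicate 3) to 6401 (without colchicine replicate 1). A 2-fold minimum left 6068 of 12028 calls in CKD against control and 6584 of 12576 with colchicine against control. The cause was not tested.

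Members near 0 changed sign between colchicine and CKD: Il6ra to 0.033 on upper-quartile scaling, 0.034 on the slope, 0.034 without the 3 libraries and 0.010 without colchicine replicate 4 (leave-one-out range -0.095 to 0.010), Osmr to 0.13 on the slope and 0.25 with only colchicine replicate 1, Stat3 to 0.062 and 0.18 in the same fits, and Lbp to -0.029 without colchicine replicate 1 (range -0.029 to 0.085) and -0.037 with the covariate. Orm1 in CKD against control turned to -0.0093 without control replicate 4 and to -0.36 without CKD replicate 4 (range -0.36 to 1.23). Orm1 with colchicine against control was called on library totals (2.10, adjusted p 0.0097), without control replicate 2 (2.02, 0.0262) and without the 3 libraries (1.32, 0.0419). Saa1 with colchicine against control was not called with only colchicine replicate 1 (2.08, adjusted p 0.0993).

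Replicate numbers did not pair the samples: 1 of 12 correlations between same-numbered libraries was over 0.1 (range -0.28 to 0.19). With the replicate number as a block, 1756 genes were called between colchicine and CKD, Saa3 gave 1.72 (adjusted p 0.00402) and Saa1 -1.72 (adjusted p 0.0302). Depth limits Saa1, Saa2, Orm1 and the control values of Saa3, which rest on few counts.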
